A study of Mus musculus with 25 samples.

Results

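The barcodes described here came from 8 wild-type testis libraries, WT4 to WT11, and were chosen by their counts: each held 200 to 1,000 unique molecular identifiers (UMIs, 1 for each captured transcript), and at least 2% of these UMIs lay on genes whose names start with mt-, the genes of the mitochondrial genome. This rule selected 8840 of the 18582 barcodes in that UMI range, which were 36.9% of all 23932 barcodes of the 8 libraries and a part of the 48642 barcodes of the series. They were compared with the 4214 barcodes of the same libraries and UMI range in which less than 1% of UMIs were mitochondrial. The 5528 barcodes between 1 and 2% belonged to neither set. The mt- genes were removed from every total before transcripts were compared, and levels are given as CPM, the count of a gene scaled to 1e6 of the remaining UMIs.

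The study profiled whole testes and sorted germ cells of wild-type and mutant mice by Drop-seq, in which a cell and a barcoded bead share a droplet. Each of the 8 libraries came from 1 wild-type male, C57BL/6 in the labels and C57BL/6J in the study's methods, which name the same substrain for WT3 and the CNP line below. The labels give ages from 3 months 1 day (WT8) to 9 months 14 days (WT10), and all 8 testes were dissociated mechanically, by shearing small pieces of tissue in a Medimachine. The library, and not the barcode, was the replicate, and both sets of barcodes of a library came from the same suspension. A further 5 libraries from mechanical dissociation, which the rule did not use, served as other mice for the same measure: WT3 (wild-type, C57BL/6, 4 months), 2 of Cul4a-/- on a B6;129 background (1 month 18 days and 1 month 21 days) and 2 of mice carrying the CNP eGFP BAC TRAP transgene on C57BL/6 (2 months 14 days and 2 months 16 days). The study reports fewer post-meiotic cells and abnormal spermatids in Cul4a-/- testes. For CNP mice it describes infertility and few elongating spermatids, with misshapen nuclei.

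The seminiferous epithelium holds germ cells at every step from spermatogonia through meiotic spermatocytes to round and elongating spermatids, with Sertoli cells among them and Leydig cells in the interstitium. Elongating spermatids replace histones with transition proteins and then protamines, whose mRNAs are made early and stored, and they shed most of their cytoplasm as residual bodies. In droplet data, a high share of mitochondrial transcripts together with few UMIs is commonly read as a mark of damaged cells, because RNA inside mitochondria is lost more slowly than cytoplasmic RNA when a membrane breaks. The authors removed a group of barcodes with small libraries and much mitochondrial RNA before their own clustering. In that group, early and late meiotic genes often occurred together, and the authors proposed poor quality or doublets. Barcodes with high mt-Rnr2 were removed as well.

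Between 840 (WT9) and 1445 (WT4) barcodes per library were members, with a median of 1118.5, which was 35.1 to 62.2% of the barcodes in the UMI range. The comparison sets held 336 to 820 barcodes per library. The members were the shallower set. Their median total ran from 331.5 to 627 UMIs over the libraries, against 445 to 688.5 UMIs in the comparison. In the 6 UMI bins to which all 8 libraries contributed, the median share of members fell from 55.8% of the barcodes of 400 to 500 UMIs to 25.7% of those of 900 to 1,000. Each library was deposited with 2987 to 2996 barcodes, so that the smallest totals present differed: the 1st percentile of the UMI range lay at 251 UMIs in WT10 and at 463 in WT11.

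**Figure D1:**
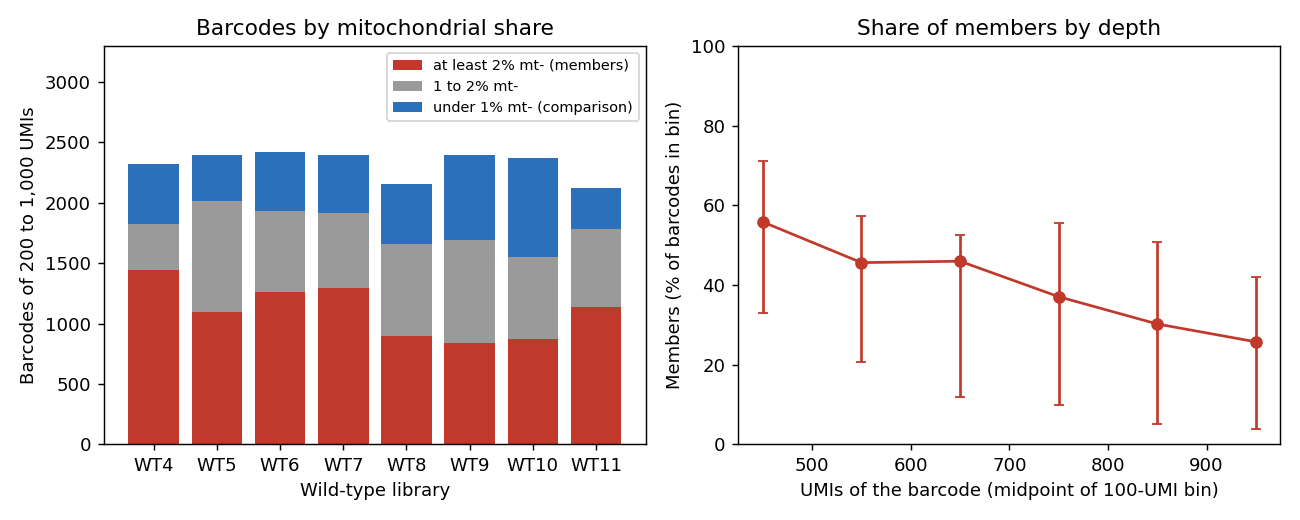
The left panel plots the number of barcodes of 200 to 1,000 UMIs in each wild-type library, split by mitochondrial share, and the right panel the members as a percentage of the barcodes in each 100-UMI bin (points are medians of 8 libraries, bars run from the lowest to the highest library). Members numbered 840 to 1445 per library, and their median share fell from 55.8% at 400 to 500 UMIs to 25.7% at 900 to 1,000 UMIs.

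The mitochondrial share itself chose the members and is given as a description. Its median among members was 2.74 to 3.95% per library, with WT4 the highest, and the highest value in 1 barcode was 16.7%. Just inside the limit, 529 barcodes lay between 2.0 and 2.1%, with a median of 11 mitochondrial UMIs, and just outside it 554 lay between 1.9 and 2.0%, with a median of 10. The limit of the members is therefore drawn through a continuous range. The mitochondrial UMIs were nearly all from the large ribosomal RNA. mt-Rnr2 supplied 93.7 to 95.9% of them in the members and 80.6 to 91.9% in the comparison, whereas mt-Rnr1, the small ribosomal RNA, supplied at most 0.809% in the members. Among the mRNAs, mt-Nd1 and mt-Cytb, which encode subunits of complexes I and III, supplied 1.06 to 1.59% and 0.843 to 1.67% of the members' mitochondrial UMIs. The members held 304522 to 718745 non-mitochondrial UMIs per library and the comparison barcodes 240523 to 410927. Any 2 of the 8 libraries shared 7 to 27 barcode sequences, and 72 of the 8840 members carried a sequence also found in another library. Without such barcodes, 737 and 539 genes were called in the comparison below. Barcodes above 1,000 UMIs in the same libraries had a median mitochondrial share of 0.345 to 0.593%.

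The 4 transcripts proposed as markers did not mark the members together: Gm16228 and Slc30a2 were nearly absent, Spata18 was lower and Akap12 higher. Gm16228, a processed pseudogene on chromosome 5, was absent from the members of WT5 and had 1 to 12 UMIs in those of WT4 and WT6 to WT10 and 100 in those of WT11, so that it was detected in few of them. In the comparison set, 172 of its UMIs came from a single barcode of WT6 with 712 UMIs, and 5 libraries had none. The fitted difference was therefore negative over all 8 libraries (log2 fold change -1.67 ± 0.19, SE) and positive without WT6 (1.17, edgeR adjusted p = 0.0096), and DESeq2 did not call it (adjusted p = 0.694). Slc30a2, a zinc transporter, had 0 to 9 UMIs per library in the members and 0 to 3 in the comparison, and did not pass the test (log2 fold change 0.27 ± 0.51, adjusted p = 0.88). Spata18, a factor of mitochondrial quality control that is abundant in spermatids, was lower in the members, at 647 to 842 CPM (median 717), against 718 to 1041 CPM (median 876) in the comparison (log2 fold change -0.29 ± 0.06, adjusted p = 1.9e-05), and these ranges overlapped. Akap12, a scaffold that anchors protein kinase A, was higher, at 2696 to 3267 CPM (median 2989) against 1900 to 2636 CPM (median 2173), with no overlap between the sets (log2 fold change 0.36 ± 0.05, adjusted p = 2.3e-11). Its difference was 0.02 (adjusted p = 0.94) when only barcodes with at least 2% of their UMIs on elongating spermatid genes were compared. No cell type name is given to the members, and they are called by their rule.

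In their transcripts of elongating spermatids and of pachytene spermatocytes, barcodes of the members resembled each other more than those of the comparison did. To compare barcodes of unequal depth, each was thinned at random to 180 non-mitochondrial UMIs, a depth that every barcode of both sets reached. On 13 genes of elongating spermatids (Prm1, Prm2, Prm3, Tnp1, Tnp2, Smcp, Odf1, Odf2, Gapdhs, Oaz3, Cabs1, Abhd5 and Akap4), members then held a mean of 6.45 to 9.1 UMIs per barcode (median library 8.47), and comparison barcodes 7.08 to 12.1 (median library 11.4). The variance of these UMIs over barcodes, divided by their mean, was 1.17 to 1.98 in the members and 3.46 to 12.4 in the comparison. Independent draws of 180 UMIs from 1 common pool of transcripts give a value slightly under 1, so both sets lay above it in every library. The comparison barcodes were the more variable set in 8 of 8 libraries, with a mean difference of 8.3 ± 2.87 (SD, n = 8; exact sign-flip permutation test, two-sided, p = 0.00781, the smallest that 8 pairs allow).

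The difference lay at both ends of the range. In the median library, 0.167% of members but 5.89% of comparison barcodes had no elongating spermatid UMI among the 180, and 0.779% of members but 20.7% of comparison barcodes had 20 or more. Between the 5th and the 95th percentile, members spanned 3.5 to 14 UMIs and comparison barcodes 0 to 33.5 in the median library. WT5 stood apart here, because its comparison barcodes had the lowest ratio of variance to mean (3.46) and only 3.62% of them had 20 or more such UMIs.

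**Figure D2:**
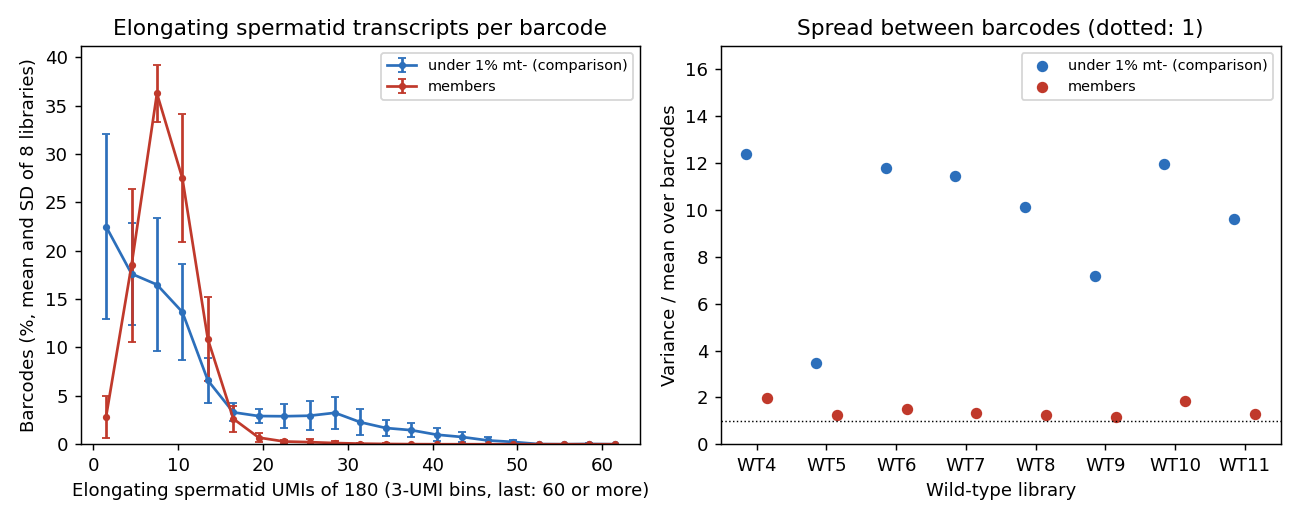
The left panel plots the distribution of elongating spermatid UMIs per barcode after thinning to 180 UMIs, as the mean percentage of barcodes in each 3-UMI bin with its SD over 8 libraries, and the right panel the variance of these UMIs divided by their mean in each library. Members form a single peak and lie between 1.17 and 1.98, above the dotted line at 1, and the comparison barcodes spread over low and high counts and lie between 3.46 and 12.4.

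More of the members than of the comparison barcodes held a UMI of each of these lists. After thinning, 98.8 to 99.9% of members and 84.2 to 96.6% of comparison barcodes held at least 1 elongating spermatid UMI. For 12 pachytene spermatocyte genes the shares were 75.4 to 82% and 64.9 to 73.9%, and for both lists the members were higher in 8 of 8 libraries. Both lists were found together in 75.3 to 81.9% of members, which is close to the pachytene share, since nearly all members held an elongating UMI. The study also sorted GFP+ spermatogonia from the pooled testes, enzymatically dissociated, of 5 litter mates of a Pou5f1-EGFP line (spelled Pouf51-EGFP, on C57BL/6, in the labels and B6;CBA-Tg(Pou5f1-EGFP) in the study's methods) aged 7 days, and there an elongating UMI was found in 2.4% of 292 barcodes thinned alike, with a median depth of 2569 UMIs. Testes of that age hold no elongating spermatids, so this share does not measure stray RNA in an adult suspension. The pachytene list was found in 30.1% of sorted spermatogonia. The pachytene UMIs had a ratio of variance to mean of 0.976 to 1.08 in the members and 1.05 to 1.46 in the comparison, and the ratio was lower in the members in 8 of 8 libraries. For 10 leptotene and zygotene genes it was 0.94 to 1.12 (median 1.07) in the members and 0.927 to 1.12 (median 1.07) in the comparison, higher in the members in 4 of 8 libraries. The part of free RNA in the members' counts was not tested.

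The same evenness was present without any marker list. Over the 200 most counted genes of each library, the median ratio of variance to mean was 1.01 to 1.02 in the members and 1.03 to 1.09 in the comparison, lower in the members in 8 of 8 libraries (mean difference -0.0477 ± 0.0142, SD, n = 8; exact sign-flip permutation test, two-sided, p = 0.00781). Barcodes with 1 to 2% mitochondrial UMIs lay between, at 1.02 to 1.05. Somatic transcripts and Malat1 were not more even in the members than in the comparison, but their counts were low. In the median library, members and comparison barcodes held means of 0.11 and 0.07 Sertoli UMIs and 0.05 and 0.03 Leydig UMIs. For Malat1 the means were 0.24 and 0.12 UMIs. At such counts the ratio says little about evenness, and it is not a like measure to that of the elongating list. The ratio of the 12 Sertoli genes was 0.988 to 1.94 (median 1.45) in the members and 0.978 to 1.26 (median 1.06) in the comparison, higher in the members in 7 of 8 libraries. The ratio of the 7 Leydig genes had medians of 1.31 and 1.08 and was higher in the members in 4 of 8 libraries. That of Malat1 had medians of 2.38 and 1.49 and was higher in the members in 5 of 8 libraries. The tests of spread were added after the values had been seen.

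Members also spread their UMIs over more genes. At 180 UMIs they reached a mean of 167 to 169 genes per barcode (median library 167), and the comparison barcodes 161 to 167 genes (median library 162). The members were higher in 8 of 8 libraries, by 4.59 ± 1.41 genes (SD, n = 8; exact sign-flip permutation test, two-sided, p = 0.00781). Thinned to 300 UMIs, the difference was 9.04 genes, with 362 members and 75 comparison barcodes too shallow to enter. Without thinning, the order was the opposite, with 306 to 532 genes per member and 398 to 544 per comparison barcode.

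To ask which transcripts the members kept, UMIs were summed per library and set and compared with edgeR's quasi-likelihood test with the library as block, over 15750 genes with at least 5 counts. At an adjusted p under 0.05, 1280 genes differed (8.13%), of which 728 (4.62%) were higher and 552 (3.5%) lower in the members. The median log2 fold change of all genes tested was 0.10, and that of the 6958 genes with at least 100 counts was 0.02. Most differences were small, as the median was 0.60 among the higher and -0.36 among the lower genes, and 152 of the higher and 11 of the lower genes differed by 2-fold or more. The higher genes were 56.9% of those called. That share was 69.3% with no scaling factors (893 higher, 396 lower) and 36.6% with DESeq2 (226 higher, 391 lower). The sets did not overlap over the libraries for 79 genes on the higher side (0.502% of all tested) and for 15 on the lower side (0.0952%). Of the called genes, 350 of the 728 and 252 of the 552 were called in each of the 8 fits that left out 1 library.

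The clearest difference was in Malat1, a long noncoding RNA that stays in the nucleus (chromosome 19, 5795690 to 5802672, minus strand, GRCm38). Its level in the members was 1033 to 1599 CPM (median 1350), and in the comparison 279 to 728 CPM (median 672). Every member set was above every comparison set, and the log2 fold change was 1.14 ± 0.06 (adjusted p = 8.6e-84). Of 8 listed nuclear-retained RNAs, 5 could be tested. Of these 3 were higher and none lower, against 4.62% and 3.5% of all genes tested, with a median of 1.11. The others that were higher were Kcnq1ot1, the noncoding RNA that silences its imprinted domain (38.6 to 74.1 CPM against 4.87 to 48.3 CPM, log2 fold change 1.11 ± 0.19, adjusted p = 1.1e-06), and Snhg11, which had 47 UMIs in all. Kcnq1ot1 lies antisense to Kcnq1, and whether reads were counted by strand is not given in the sources used here. Neat1, the scaffold RNA of paraspeckles, did not pass the test (0.42 ± 0.31, adjusted p = 0.54).

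Golga4 and Sycp2 were also among the higher genes with the smallest adjusted p. Golga4, a coiled-coil protein of the trans-Golgi (chromosome 9, 118506267 to 118582519, plus strand), was at 514 to 974 CPM (median 758) against 419 to 619 CPM, higher in 8 of 8 libraries although the ranges overlapped (log2 fold change 0.57 ± 0.06, adjusted p = 5.4e-17). Sycp2, a component of the lateral elements of the synaptonemal complex, was at 367 to 483 CPM (median 447) against 196 to 341 CPM (median 270), without overlap (log2 fold change 0.63 ± 0.07, adjusted p = 6.3e-15).

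**Figure D3:**
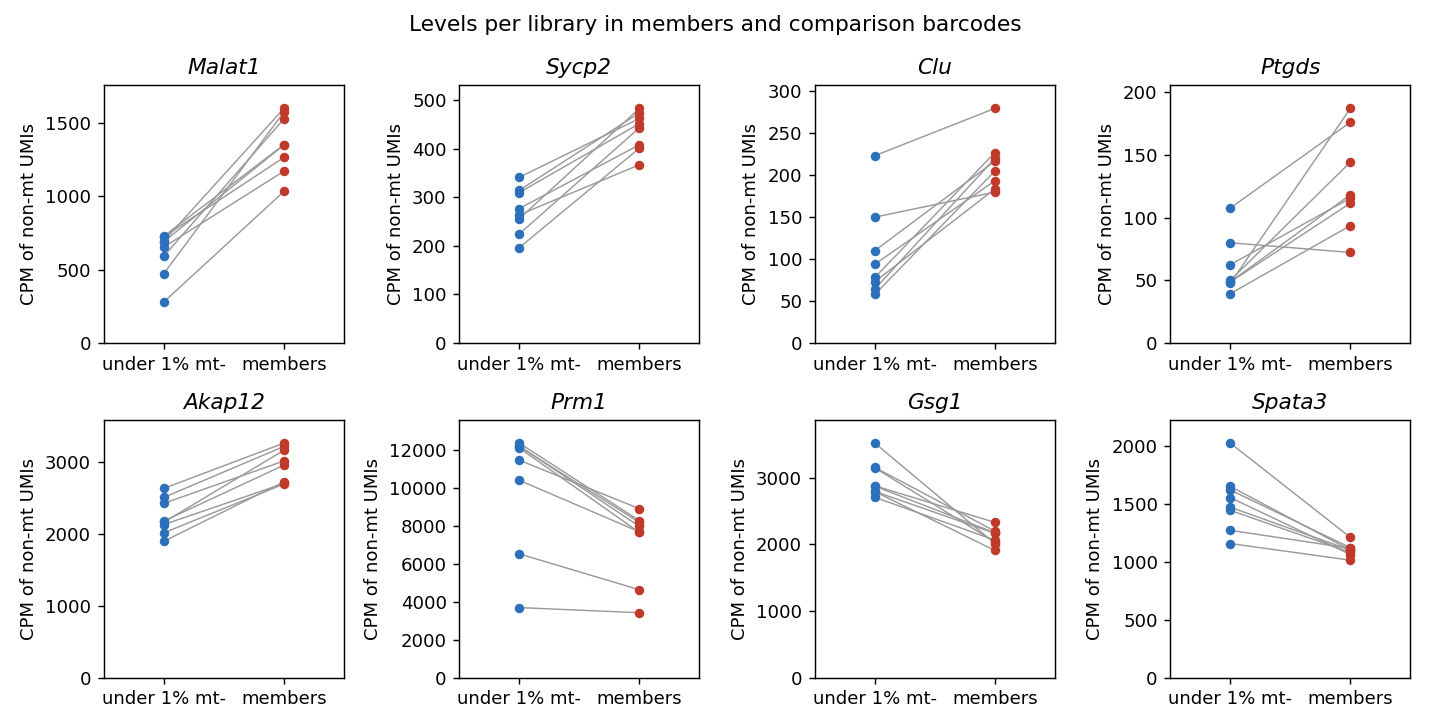
Each panel plots the level of 1 gene, in CPM of non-mitochondrial UMIs, in the comparison barcodes and in the members of the 8 libraries, with a line joining the values of a library. Malat1, Sycp2 and Akap12 are higher in every member set than in every comparison set, Gsg1 is lower in every member set, and for Clu, Ptgds, Prm1 and Spata3 the ranges overlap.

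By size of the fold among genes with at least 100 counts and 1 direction in all 8 libraries, the 12 leading higher genes were Dnmt1, Dnah2, Helz, Zfp820, Ankib1, Hsd3b6, A830010M20Rik, Ralb, Rcn2, 4930447C04Rik, Spcs3 and Ing4, with log2 fold changes from 1.59 to 1.23. All were rare. Dnmt1, the maintenance DNA methyltransferase, was at 5.85 to 33.6 CPM (median 25.9) in the members and 0 to 17 CPM (median 6.06) in the comparison. Rcn2, a calcium-binding protein of the endoplasmic reticulum, was the most counted of them and did not overlap between the sets, at 33.1 to 58.7 CPM against 10.4 to 24.9 CPM (log2 fold change 1.32 ± 0.24, adjusted p = 1.8e-06). Ing4 and Zfp820 did not pass the test in every fit that left out 1 library, with adjusted p up to 0.13 and 0.070.

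Several Sertoli and Leydig cell genes were higher in the members. Of 12 Sertoli cell genes, 11 could be tested. Of these 7 were higher and none lower, against 4.62% and 3.5% of all genes tested, with a median log2 fold change of 0.99. The list as a whole was at 543 to 755 CPM in the members (median 626) and 136 to 572 CPM in the comparison (median 345), higher in 8 of 8 libraries. Among barcodes with at least 2% elongating spermatid UMIs its median was 0.53, and 4 genes were higher. There the median of all genes was 0.23, and 7.34% were higher. Clu, which encodes the secreted chaperone clusterin (chromosome 14, 65968483 to 65981547, plus strand), was at 179 to 279 CPM (median 211) against 57.8 to 223 CPM (median 85.7), and the log2 fold change was 0.99 ± 0.10 (adjusted p = 2.2e-18). Cst9, a cystatin, was higher by 0.89 ± 0.12 (adjusted p = 2.2e-10), Aard by 1.00 ± 0.15 (adjusted p = 7e-09) and the cystatin Cst12 by 0.72 ± 0.15 (adjusted p = 0.00014).

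All 7 Leydig cell genes could be tested. Of these 3 were higher and none lower, against 4.62% and 3.5% of all genes tested, with a median of 1.00. The list was at 161 to 374 CPM in the members and 68 to 288 CPM in the comparison, and 8 of 8 libraries were higher. Among barcodes with at least 2% elongating spermatid UMIs its median was 0.54, and 2 genes were higher, against 7.34% of all genes there. Ptgds, the prostaglandin D synthase, was at 72.1 to 187 CPM (median 117) against 39.3 to 108 CPM (median 49.3), higher in 7 of 8 libraries (log2 fold change 1.01 ± 0.13, adjusted p = 7e-12). The steroid hydroxylase Cyp17a1 was higher by 1.03 ± 0.19 (adjusted p = 4.8e-06) and the hormone Insl3 by 1.07 ± 0.23 (adjusted p = 0.00014). Even so, these transcripts were sparse, since only 11.8 to 16.2% of members thinned to 180 UMIs held any UMI of both lists together, against 3.21 to 15.2% of comparison barcodes. In sorted spermatogonia, 6.51% held a Sertoli UMI and 0.685% a Leydig UMI.

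Other somatic lists held few UMIs and gave few calls. Of 8 telocyte genes tested 1 was higher (Dcn, a matrix proteoglycan, 0.69 ± 0.24, adjusted p = 0.046), against 4.62% of all genes tested. That list had a median log2 fold change of 1.00 on 468 UMIs and was higher in 7 of 8 libraries. Of 5 erythroid genes 2 were called higher, Hbb-bs (1.13 ± 0.33, adjusted p = 0.013) and Hbb-bt. Hbb-bt had 17 UMIs in all and none in the comparison. It thus entered the test through the members alone, and its call adds no support. The erythroid list had a median of 0.47 on 198 UMIs and was higher in 7 of 8 libraries. DESeq2 called no gene of either list, but it gave no adjusted p for some of Dcn, Hbb-bs and Hbb-bt. No gene passed for macrophages (8 tested), T cells (4), peritubular myoid cells (4) or endothelium (3), at an unadjusted p under 0.05 or with DESeq2 either. Over both sets, these lists held 285, 186, 51 and 57 UMIs, and they were higher in the members in 6, 3, 4 and 4 of 8 libraries. The calls of Dcn, Hbb-bs and Hbb-bt were each lost in some fit that left out 1 library (adjusted p up to 0.38, 0.17 and 0.13).

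Of 10 leptotene and zygotene genes 4 were higher and none lower, against 4.62% and 3.5% of all genes tested. DESeq2 called Sycp2 and gave no adjusted p for the other three. The median was 0.66, and 0.04 at 200 to 500 UMIs. The higher genes included Sycp2 and Hfm1, a meiotic helicase (0.70 ± 0.23, adjusted p = 0.036). Smc1b, a meiotic cohesin and the most counted of the list, did not pass (0.12 ± 0.07, adjusted p = 0.38). Of 12 pachytene genes 6 were higher, with a median of 0.31. These were Clgn, a chaperone of the endoplasmic reticulum (0.29 ± 0.05, adjusted p = 2.1e-06), Piwil1, which binds pachytene piRNAs (0.46 ± 0.10, adjusted p = 9.5e-05), Hspa2, Ccdc39, Tdrd1 and Tdrd5. Mael was lower over all (-0.18 ± 0.05, adjusted p = 0.016) but in 5 of 8 libraries. Leaving out 1 library ended the calls of Mael (adjusted p up to 0.20) and Hfm1 (up to 0.15). Of 9 genes of the meiotic divisions 3 were lower, Tbpl1, Ccna1 and Rgcc, and of 13 round spermatid genes 2 were lower, Tekt1 and Catsper3, where 3.5% of all genes tested were lower. The direction of the meiotic division list depended on which barcodes were compared. Among those with at least 2% elongating spermatid UMIs it had 3 higher, none lower and a median of 0.34 in place of -0.22. The pachytene list had 10 higher and none lower there. Of all genes tested under that limit, 7.34% were higher and 5.27% lower. That limit takes mainly comparison barcodes poor in spermatid transcripts away, which raises the fold changes of other stages by its construction, and the median of all genes there was 0.23. Spermatogonial genes were near the limit of detection, with 283 UMIs over 10 genes. None passed, and 2 did at an unadjusted p under 0.05, while the list had a median of 0.82 and was higher in 8 of 8 libraries.

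Of the 13 elongating spermatid genes, 11 were lower and none higher, where 3.5% of all genes tested were lower, with a median log2 fold change of -0.37. That median was -0.40 at 500 to 1,000 UMIs and 0.05 at 200 to 500 UMIs, where none of the 11 was called. Prm1, protamine 1 (chromosome 16, 10796326 to 10805839, minus strand), was at 3421 to 8901 CPM (median 7825) in the members and 3692 to 12356 CPM (median 11780) in the comparison, lower in 8 of 8 libraries (log2 fold change -0.53 ± 0.05, adjusted p = 1.8e-27). Tnp1 and Tnp2, the transition proteins, had log2 fold changes of -0.41 ± 0.05 and -0.43 ± 0.05 (adjusted p = 3.8e-16 and 6.4e-18), and Prm2 had a log2 fold change of -0.45 ± 0.05 (adjusted p = 1.8e-19). Smcp, a cysteine-rich protein of the sperm mitochondrial sheath, had -0.37 ± 0.05 (adjusted p = 3.1e-13). Odf1 (0.20 ± 0.08, adjusted p = 0.085) and Odf2 (-0.13 ± 0.05, adjusted p = 0.062), of the outer dense fibres, did not pass the test.

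Outside the list, Gsg1, a germ cell protein of the endoplasmic reticulum (chromosome 6, 135237326 to 135254351, minus strand), was at 1908 to 2329 CPM (median 2113) against 2706 to 3517 CPM (median 2875). The sets did not overlap, and the log2 fold change was -0.54 ± 0.05 (adjusted p = 1e-26). Oaz3, a spermatid antizyme of the list, had -0.48 ± 0.05, Spata3 -0.51 ± 0.05 and Cdrt4 -0.60 ± 0.06 (adjusted p = 1.2e-19, 1.9e-19 and 3.8e-18). By the same limits on counts and direction, the 12 genes with the most negative fold changes were Gm12206, Hdac11, Tm2d1, 4833418N02Rik, Gm4875, 1700001F09Rik, RP24-342P18.1, Gm16555, Stap2, a clone-named transcript, Ccdc57 and Coq10b, from -1.14 to -0.68. Hdac11, a histone deacetylase, was at 13.1 to 33.5 CPM (median 23.5) in the members and 27.2 to 71.3 CPM (median 47.7) in the comparison, lower in 8 of 8 libraries (log2 fold change -1.10 ± 0.21, adjusted p = 9.2e-06).

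The difference in the protamines was not the same at all depths. Among barcodes of 500 to 1,000 UMIs, 798 genes differed (5.46%), with 437 higher (2.99%) and 361 lower (2.47%). There the log2 fold changes were -0.58 for Prm1 and -0.46 for Prm2, and among those of 200 to 500 UMIs they were 0.07 (adjusted p = 0.98) and 0.22 (adjusted p = 0.86). A test of the difference between barcodes under 500 and those of 500 UMIs or more, added after these values had been seen, called 2 of 15750 genes (0.0127%), and these were Prm1 (-0.59 ± 0.12) and Prm2 (-0.60 ± 0.13), both with an adjusted p of 0.016. That test took each range of each library as a block of its own. Both ranges of a mouse thus counted as independent, and their pairing was left out. At an unadjusted p under 0.05 there were 698 genes. In the lower range, 5 genes were higher (0.0397% of 12598) and none lower, against 749 and 124 at an unadjusted p under 0.05. Among them were Malat1 (1.22, adjusted p = 7.3e-12), Clu (1.07, adjusted p = 0.0085), Golga4 (0.67, adjusted p = 0.027) and Prrc2c, an RNA-binding protein of stress granules. The comparison set of the lower range was thin in some libraries, with 6 barcodes in WT11 and 14 in WT5.

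Of 42 tested nuclear genes of the respiratory chain none was called, against 8.13% of all genes tested, with a median log2 fold change of 0.02. At an unadjusted p under 0.05, 1 was higher and 1 lower, and DESeq2 called none. The list was at 7107 to 11410 CPM in the members and 6396 to 10992 CPM in the comparison. Its most counted member, Cox8c, a testis form of a cytochrome c oxidase subunit, had a log2 fold change of -0.01 ± 0.06. Among barcodes with at least 2% elongating spermatid UMIs, 8 genes of the list were higher and 1 lower, against 7.34% and 5.27% of all genes, and its median of 0.22 was near the 0.23 of all genes. Of 13 factors of mitochondrial transcription and translation, none was called either, with 1 higher and 1 lower at an unadjusted p under 0.05 and none with DESeq2. With 8.13% of all genes called, a list of 13 can lack a call without differing from the rest. Of 15 mitophagy genes only Spata18 was called, and it was lower, where 3.5% of all genes were. Its log2 fold change was 0.04 at 200 to 500 UMIs, and the median of the list was 0.09, with 10 genes above 0, while its summed level was lower in 7 of 8 libraries.

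Of 17 apoptosis genes, Bcl2l11, which encodes the pro-apoptotic protein BIM, was lower (-0.54 ± 0.19, adjusted p = 0.049, up to 0.17 without 1 library), where 3.5% of all genes were, and none was called higher. The median of the list was 0.44, with 15 of the 17 genes above 0. Its summed level was higher in 7 of 8 libraries but by little. The median was 549 CPM in the members and 534 CPM in the comparison, with a median log2 ratio of 0.027. Of 12 early response and heat shock genes none was called, with 1 higher at an unadjusted p under 0.05 and none with DESeq2. Of 21 zinc transporters and metallothioneins none was called, with 1 in each direction at an unadjusted p under 0.05 and none with DESeq2. Since 8.13% of all genes tested were called, lists of these sizes can lack a call without differing from the rest. Of 81 cytosolic ribosomal protein genes 9 were lower, against 3.5% of all genes tested, led by Rps20 (-0.24 ± 0.06, adjusted p = 0.0015, up to 0.065 without 1 library), and Rpl10 was higher on 33 UMIs (up to 0.081). Rpl10 has near-identical copies in the genome, so that its count is uncertain. Of 14 A-kinase anchors, Akap12 and Akap9 were higher and Akap4, also on the elongating spermatid list, lower, against 4.62% and 3.5% of all genes tested (-0.20 ± 0.05, adjusted p = 0.0051, up to 0.080 without 1 library). None of the 6 listed nuclear copies of mitochondrial sequence had counts in these libraries.

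The genes that were higher had longer annotated transcripts than those that were lower. Gene models were taken from GENCODE vM21 (GRCm38) for the genes with at least 100 counts, and 96.1% of the 648 higher and 90.5% of the 547 lower genes had one. The longest annotated transcript had a median of 4879 nt among the higher genes, 1475 nt among the lower ones and 2914 nt among those not called. The genomic span had medians of 44.4, 10.8 and 21.9 kb. Which transcript of a gene was expressed was not measured. The lower genes were also the more counted, with a median of 1849 UMIs, against 548 among the higher genes and 328 among those not called. Of 5 equal groups of genes by transcript length, the shortest, up to 1497 nt, held the fewest higher genes. In it 2.46% were higher and 19.2% lower, and in the group of the longest, from 4913 nt, 23.9% were higher and 2.54% lower. The median log2 fold change went over the groups from -0.14 to 0.22. Across 6506 genes, which are not independent replicates, the log2 fold change had a Spearman correlation of 0.39 with transcript length and 0.27 with span.

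The order by length was also present in the shallower barcodes and in those rich in spermatid transcripts. At 200 to 500 UMIs the medians ran from -0.02 in the shortest group to 0.27 in the longest, and among barcodes with at least 2% elongating spermatid UMIs from -0.02 to 0.35. In the 5 libraries that the rule did not use they ran from -0.40 to 0.25. The parts of the stage of expression and of the count of a gene in this order were not tested. Of the higher genes, 0.803% lay on chromosome X, against 4.85% of the lower ones and 1.91% of those not called.

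**Figure D4:**
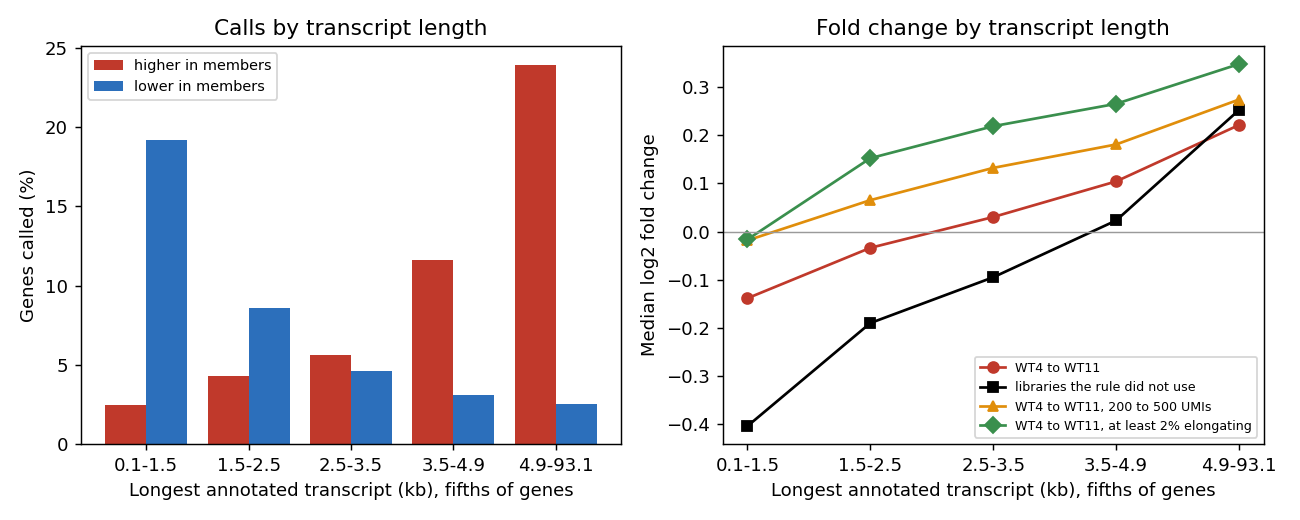
The left panel plots the percentage of genes called higher or lower in the members in each of 5 equal groups of genes by length of the longest annotated transcript (in kb), and the right panel the median log2 fold change in each group for the 8 libraries, for their barcodes of 200 to 500 UMIs, for their barcodes with at least 2% elongating spermatid UMIs, and for the 5 libraries that the rule did not use. The share of higher genes goes from 2.46% in the shortest to 23.9% in the longest group, and all 4 medians increase with length.

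For some of the named genes, levels changed with the mitochondrial share on both sides of the limit. From barcodes under 0.5% to those of 5% and more, the mean level of Malat1 went from 366 ± 87.1 CPM (SD, n = 8) to 2159 ± 1229 CPM (median 1673, highest library 4928), and that of Clu from 62.9 ± 26.4 to 261 ± 109 CPM. Prm1 went from 10422 ± 3672 to 6422 ± 1629 CPM and Gsg1 from 3034 ± 293 to 1897 ± 177 CPM. Not every gene changed in 1 direction over the bins: Spata18 was at 821 CPM under 0.5%, 899 CPM at 0.5 to 1% and 655 CPM at 5% and more. Much of the difference lay below the limit. Malat1 was already at 1024 ± 202 CPM in barcodes with 1 to 2% and at 806 ± 270 CPM in those with 0.5 to 1%.

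**Figure D5:**
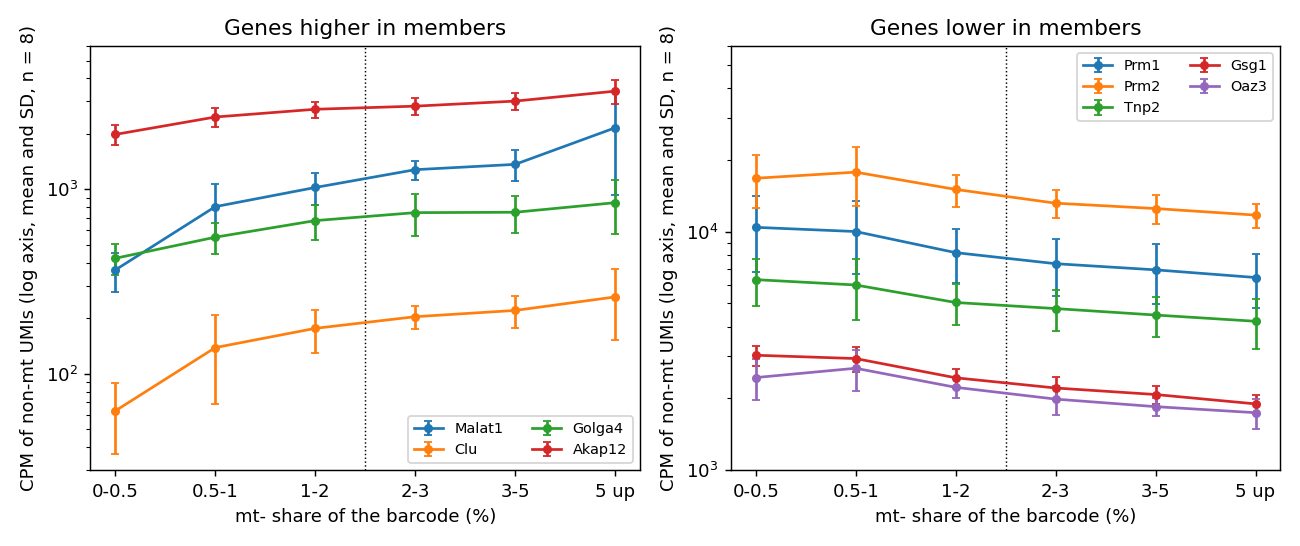
Both panels plot the mean level of each gene (CPM of non-mitochondrial UMIs on a log axis, bars are SD over 8 libraries) in barcodes of 200 to 1,000 UMIs binned by mitochondrial share, and the dotted line marks the limit of 2%. Malat1 rises from 366 to 2159 CPM over the bins and Gsg1 falls from 3034 to 1897 CPM.

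The comparison was also made among only those barcodes with at least 2% of their UMIs on the elongating spermatid list. Such barcodes were 92 to 99.2% of members (median 98.7%) and 46.3 to 86.3% of the comparison (median 74.7%). The limit thus removed more of the comparison than of the members, and the barcodes it removed were poor in spermatid transcripts, so that it lowers the fold changes of spermatid genes by its construction. Without the listed genes, 1126 of 15342 genes were higher (7.34%) and 809 lower (5.27%), and 723 of the 728 genes higher before and 476 of the 541 lower genes that could be tested kept their sign. The median log2 fold change of all genes moved from 0.10 to 0.23 in this fit, and a shift in that direction favours the sign of the higher genes. Malat1 (0.84) and Clu (0.64) were higher with adjusted p of 7.2e-20 and 2e-05. Mael, Tbpl1, Ccna1, Tekt1 and Dcn changed sign, and Tbpl1 was called higher (0.34, adjusted p = 0.0045).

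In the 5 libraries that the rule did not use, the same limits gave 74 to 783 members and 182 to 529 comparison barcodes per library. Of 13540 genes tested, 910 differed (6.72%), and 335 were higher (2.47%) and 575 lower (4.25%). Of the 728 genes higher in WT4 to WT11, 727 could be tested there, 678 had the same sign and 184 were called higher, which was 25.3% of the first list and 54.9% of the second. Of the 552 lower genes, 551 could be tested, 537 had the same sign and 338 were called lower (61.2% and 58.8% of the lists). None was called in the opposite direction by edgeR, and 3 had an unadjusted p under 0.05 in that direction. The counts of 335 and 575 fell to 101 and 100 without the first Cul4a library and to 82 and 106 without the second, and the lower count to 332 without the second CNP library.

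Malat1 was higher there by 2.65 ± 0.18 (adjusted p = 3.8e-43) and Clu by 2.17 ± 0.22 (adjusted p = 1.2e-20), in 5 of 5 libraries each. All 7 Leydig genes were called higher, with a median of 3.13, among them Insl3 (3.62 ± 0.28) and Cyp17a1 (3.55 ± 0.27). Of the 13 elongating spermatid genes 12 were called lower, with a median of -0.70. Akap12 was not called (0.26 ± 0.17, adjusted p = 0.46), and Spata18 was called lower (-1.01, adjusted p = 1e-05). Genotype, age and depth differ between these libraries and WT4 to WT11, as does spermatogenesis in the Cul4a and CNP libraries. These differences cannot be told apart.

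As whole profiles, the sums of the members were close to those of the deeper barcodes of the same library. Pearson's r over genes, on log2(CPM + 10), was 0.962 to 0.983 between members and barcodes above 1,000 UMIs, and 0.967 to 0.975 between comparison barcodes and the latter. The value for the members was the higher in 6 of 8 libraries, the exceptions being WT9 and WT10. The member sums were mostly also the deeper ones, with a median of 610947 UMIs against 291227 in the comparison. In WT10 the member sum was the smaller (304522 against 410927), and in WT9 the sums were nearer (429730 against 400709). The part of depth in this order was not tested. The values of r are correlations across genes, which share library and depth, and are given as a description.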

How the data were processed

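Testis cell suspensions of the study were profiled by Drop-seq. The 25 deposited tables hold raw UMI counts per gene and barcode. The authors made them with the Drop-seq pipeline, and the submitters' processing notes name bcl2fastq, STAR 2.5.3a and the mm10 (GRCm38) build. Each of WT4 to WT11 holds 2987 to 2996 barcodes. No doublet caller was run here.

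Barcodes of 200 to 1,000 UMIs were classed by the mt- share of their UMIs (at least 2%, members; less than 1%, comparison), mt- genes were removed, and counts were summed per library and class. The members and gene lists were chosen with earlier results of these data known. Sums were compared with edgeR 4.0.16 in R 4.3.3 (quasi-likelihood test, TMM scaling, genes with at least 5 summed counts, Benjamini-Hochberg adjustment over all genes, threshold 0.05), with the library as block, since both sums of a library come from 1 mouse. The choices varied were the filter, scaling, test (DESeq2 1.42.0), limits of the classes and libraries left out. Paired values per library were compared by an exact sign-flip permutation test, two-sided. Values ± are SE for fold changes and SD elsewhere. The p-values measure the spread between libraries, each of 1 mouse, except in the test between UMI ranges. There both ranges of a mouse entered as separate blocks. Depth was 304522 to 718745 UMIs per library for the members and 240523 to 410927 for the comparison.

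Named genes are the 4 given markers, and, of called genes with at least 100 counts and 1 direction in 8 of 8 libraries, the 12 largest and 12 most negative fold changes, the 5 smallest adjusted p each way, and up to 4 of the most counted genes of a list; 1 gene that this rule selects is not reported here. Piwil1, Odf1, Odf2, Tnp2, Akap9, Akap4, Hbb-bt, Snhg11, Rpl10 and Prrc2c, and the called genes listed by name only, were named after their values had been seen. In counts simulated for the main comparison (15741 genes) at a fixed dispersion of 0.02, 83% of genes changed by a log2 of 1 were called. Of those changed by 0.5, 30% were called, with 2 false among 115 calls. For the other 5 libraries (13304 genes) these shares were 27% and 1%. The dispersion was not taken from these data, so the shares need not hold for them.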

Additional observations from a re-analysis of the deposited data

Results flagged for a closer look

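Among 43 groups of library values examined, 4 held a library far from the others, and chance gives about 1 in 20. The median mitochondrial share of the members was 3.95% in WT4 and 2.74 to 3.21% in the other 7 libraries. The log2 ratio of members to comparison (1 CPM added) of Gm16228 was -7.14 in WT6 and 0 to 4.60 elsewhere. Those of Dnmt1 and Dnah2 were both 4.78 in WT11, and 0.54 to 2.22 and 0.21 to 2.03 elsewhere; the comparison set of WT11 was the smallest, with 336 barcodes.

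In a test of the difference between the 5 libraries that the rule did not use and WT4 to WT11 (edgeR, adjusted over 16865 genes), 148 genes differed. Of the genes named above, the log2 fold change was higher in the 5 libraries by 1.496 for Malat1 (adjusted p = 5.2e-23), by 1.20 for Clu (adjusted p = 0.00010) and by 3.39 for Gm16228 (adjusted p = 0.017). The last rests on the WT6 barcode described above, since the log2 fold change of Gm16228 in WT4 to WT11 was -1.67 with WT6 and 1.17 without it, against 1.73 (adjusted p = 0.37) in the 5 libraries. Differences of -0.76 for Spata18 (adjusted p = 0.0011), -0.56 for Gsg1 (adjusted p = 0.0042), -0.44 for Oaz3 (adjusted p = 0.041) and -0.59 for Cdrt4 (adjusted p = 0.039) had the other sign, as did those of -0.52 for Prm2, -0.49 for Smcp, -0.44 for Tnp2, -0.42 for Odf2 and -0.59 for Gapdhs (adjusted p = 0.0060, 0.011, 0.026, 0.041 and 0.0015). Dcn differed by -1.68 (adjusted p = 0.011), with a log2 fold change of 0.69 in WT4 to WT11 and -0.91 (adjusted p = 0.11) in the 5 libraries. The 3 most counted Leydig genes, chosen after their values had been seen, differed by 1.85 for Ptgds (adjusted p = 4.8e-09), 2.54 for Cyp17a1 (adjusted p = 2e-09) and 2.67 for Insl3 (adjusted p = 1.7e-08). Strain, age and genotype cannot be told apart here. Between barcodes of 500 or more and of under 500 UMIs, the log2 fold change differed by -0.59 for Prm1 and -0.60 for Prm2 (both adjusted p = 0.016).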

How the results depend on the processing

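The 728 higher and 552 lower genes became 226 and 391 with DESeq2, 454 and 728 with members of at least 3%, 225 and 676 against all barcodes under 2%, 415 and 519 with classes matched in 50-UMI bins, 223 and 40 after thinning to 180 UMIs, 437 and 361 at 500 to 1,000 UMIs, 5 and 0 at 200 to 500 UMIs, 1126 and 809 with at least 2% elongating spermatid UMIs and 127 and 848 with less. With a mitochondrial share that left out mt-Rnr1 and mt-Rnr2 they were 108 and 2314, on 3 to 19 members per library. Thinning and narrower ranges leave fewer UMIs or barcodes; the cause of the other changes was not tested. Leaving out 1 library gave 541 to 698 higher and 342 to 471 lower genes, with 363, 362 and 342 lower without WT8, WT9 and WT10. In the 5 other libraries, 335 and 575 genes became 518 and 602 with edgeR's filterByExpr, 117 and 289 with DESeq2, and 82 to 420 and 100 to 649 with 1 library left out. The gene detection difference of 4.59 was 4.39 to 4.98 without 1 library.

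Both sums of a library are paired by the mouse. With no replicate block, 337 genes were higher and 178 lower, and in the 5 other libraries 145 and 45.

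Some named genes changed sign. At 200 to 500 UMIs the log2 fold changes were 0.43 for Gm16228, 0.036 for Spata18, 0.30 for Gm4875, 0.074 for Prm1, 0.22 for Prm2, 0.17 for Smcp, 0.080 for Tnp1 and 0.053 for Akap4. Among barcodes with less than 2% elongating spermatid UMIs they were 0.79 for Spata18, -0.74 for Dnah2, 0.32 for RP24-342P18.1, 0.092 for Stap2, 1.14 for Ccdc57, -0.29 for Golga4, 0.073 for Spata3, 0.015 for Cdrt4 and -0.42 for Clgn, and with at least 2% they were 0.0073 for Mael, 0.34 for Tbpl1, 0.21 for Ccna1, 0.074 for Tekt1 and -0.057 for Dcn. Without mt-Rnr1 and mt-Rnr2 they were -2.30 for Akap12, -1.02 for Dnmt1, -6.30 for A830010M20Rik, -6.23 for Spcs3, -1.43 for Golga4, -1.28 for Clgn, -7.00 for Dcn, -6.62 for Hbb-bs, -3.82 for Hbb-bt and -0.78 for Kcnq1ot1. Gm16228 was at 1.12 with DESeq2, and without 1 library it ran from -3.36 (WT11) to 1.17 (WT6). Of 60 called genes examined, 59 kept their call with DESeq2's size factors (RLE) and 57 without scaling factors, but 3 at 200 to 500 UMIs and 25 after thinning to 180 UMIs. With at least 2% elongating spermatid UMIs 36 of 54 kept it, and with less 19 of 49. In data simulated at a fixed dispersion of 0.02, 30% of genes changed by a log2 of 0.5 were called.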

Other observations

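The last base of the barcode differed between the sets. It was T in 32.4 to 38.5% of members (median 34.3%), in 20.9 to 27.9% of comparison barcodes (median 22.8%) and in 27.5 to 31.9% of barcodes above 1,000 UMIs (median 27.9%). The members were higher than the comparison in 8 of 8 libraries. Its part in the other results was not tested.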
